A study of Mus musculus with 2 samples.

Results

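Among the stromal cells of mouse gonadal white adipose tissue (gWAT) profiled here, 129 cells carried RNA of Calca, of Ncam1 or of both, and they are called Calca/Ncam1 cells below, also where 1 of the genes was not found. They were chosen by their counts. From all barcodes of both libraries, cells were taken with more than 1000 and fewer than 7000 detected genes and less than 8% of unique molecular identifiers (UMIs, 1 per captured RNA molecule) from mitochondrial genes. Cells with 5 or more UMIs of the mesothelial genes Msln, Upk3b, Krt19, Lrrn4 and Upk1b, or with 1% or more of their UMIs from the immunoglobulin genes Igkc, Ighm, Igha and Jchain, were left out. The 7852 cells that remained form the stromal gate, and those with at least 3 UMIs of Calca and Ncam1 together are the Calca/Ncam1 cells. They numbered 27 of 3118 gate cells in the Tom+ library and 102 of 4734 in the Tom- library, out of 17404 barcodes in all.

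The samples were CD31- CD45- cells of gWAT from p16-CreERT2/R26-LSL-tdTomato mice 18 months of age, treated with tamoxifen and sorted by tdTomato fluorescence into a Tom+ and a Tom- fraction. Both fractions came from the same genotype and treatment. The Cre recombinase is driven by the p16 gene (Cdkn2a), so that a cell in which p16 was expressed when tamoxifen was given keeps the red reporter, as do its daughter cells. One droplet library was made of each fraction, and the number of mice in a library is not given in the sources used here. Since each fraction gave a single library, nothing could be tested over replicates, and the fraction cannot be told apart from its preparation. Parentheses hold 95% intervals for counting error alone, by the exact Poisson method for a level and by the Clopper-Pearson method for a share or ratio.

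Calca encodes calcitonin and, by alternative splicing, the vasodilator neuropeptide CGRP, which is best known from sensory neurons and from thyroid C cells. Ncam1 encodes the neural cell adhesion molecule, a surface protein of neurons, glia and several mesenchymal cells that binds its like on neighbouring cells. The stroma of gWAT outside vessels and blood cells consists mostly of adipocyte progenitor cells (APCs), fibroblast-like cells with Pdgfra and Ly6a, and the tissue is covered by a mesothelium, an epithelium-like sheet of mesodermal origin. The tables count UMIs per gene, so the calcitonin and CGRP transcripts of Calca are not separated.

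Some of the cells stood apart before any comparison. In the Tom+ library 3 of the 27 Calca/Ncam1 cells carried RNA of blood-derived cells. Of these, 2 cells had 794 and 373 UMIs of the mast cell genes Tpsb2, Cpa3 and Mcpt4, and 1 had 43 UMIs of a list of 8 leukocyte genes and 93 UMIs of C1qa, a complement gene of macrophages. By the same limit of 3 UMIs, 67 of the 3091 remaining Tom+ gate cells (2.17%), 51 of the 4632 remaining Tom- gate cells (1.10%) and none of the 102 Tom- Calca/Ncam1 cells carried such RNA. The 2 libraries also shared 2224 barcodes. The barcodes of 6 Calca/Ncam1 cells, 3 in each library, were listed in the other library too, there with 508 to 722 UMIs, and none of those counterparts passed the limits on genes and mitochondrial share. Counts over all genes are given with and without these cells, and so are the counts of listed genes that changed when they were left out of both sets.

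The Calca/Ncam1 cells made up 0.866% of Tom+ gate cells (0.571 to 1.26) and 2.15% of Tom- gate cells (1.76 to 2.61). The share was 2.49 times as high in the Tom- library (1.61 to 3.96). Tom+ cells were 20.9% of the Calca/Ncam1 cells (14.3 to 29.0) and 39.7% of the whole gate. Their median depth was 12903 UMIs (Tom+) and 11068 UMIs (Tom-), beside 14028 and 11240 for the remaining gate cells, and the sums compared below rest on 384621 and 1344162 UMIs of Calca/Ncam1 cells.

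Most gate cells had no UMI of either gene. In the Tom+ library 3039 cells had 0 UMIs, 40 had 1 and 12 had 2, just outside the rule, while 5 had 3 and 7 had 4, just inside it. In the Tom- library the numbers were 4481 cells with 0, 102 with 1 and 49 with 2, then 29 with 3 and 22 with 4. At least 10 UMIs were found in 5 Tom+ and 17 Tom- cells, and the highest sum was 61. The 2 genes contributed unequally. Ncam1 was found in 25 of 27 Tom+ and 95 of 102 Tom- Calca/Ncam1 cells, and Calca in 7 and 43 of them. Both genes were found together in 5 Tom+ and 36 Tom- cells, and Calca without Ncam1 in 2 and 7. Calca RNA was concentrated in few cells, since the 3 cells highest for it held 65.2% of its UMIs among Tom+ and 42.7% among Tom- Calca/Ncam1 cells. These values chose the cells and are given as a description.

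Calca (ENSMUSG00000030669) lies on the minus strand of GRCm38 at chr7:114631478-114636357 and Ncam1 (ENSMUSG00000039542) on the minus strand at chr9:49502136-49798925. The stretch of the RefSeq promoter of Calca printed here, on the minus strand of GRCm38.p6 at chr7:114636385-114636452, is shown because Calca chose the cells. The capitals mark the letters TGACGCAA, a cAMP-response-like element, which begin 65 bases before the annotated start and were searched on both strands.
Calca: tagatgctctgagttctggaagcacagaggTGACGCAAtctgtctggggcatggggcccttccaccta
The search covered the 250 bases before the start, of which the stretch around the match is printed, and the same letters occurred in 0.438% of the 32851 promoters searched over as many bases. A match describes the sequence and does not show that a factor bound there.

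The label of these cells also names Cxcl5, Gatm, Serpinb2 and Art3, which the rule did not use but which had been picked with results of these data known. Gatm (chr2:122594467-122611303), the first enzyme of creatine synthesis, was at 213 CPM (counts per 1000000 UMIs, 170 to 265) among Tom+ and 270 CPM (243 to 299) among Tom- Calca/Ncam1 cells. In the remaining cells it was at 5.33 and 12.6 CPM. Cxcl5 (chr5:90759360-90761624), a chemokine that attracts neutrophils, was at 151 CPM (115 to 195) and 276 CPM (249 to 306), against 12.0 and 9.03 CPM. Both genes were higher in the Calca/Ncam1 cells of each library. Gatm was found in 18 of 27 Tom+ and 61 of 102 Tom- Calca/Ncam1 cells, and Cxcl5 in 8 and 40 of them. All 4 genes reached 20 CPM, as the mean of both libraries, in the Calca/Ncam1 cells alone, so higher was the only call open to them.

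Art3 (chr5:92331827-92414628), a member of the ADP-ribosyltransferase family, was at 23.4 CPM (10.7 to 44.4) and 49.1 CPM (38.0 to 62.5), against 3.98 and 4.33 CPM. Its UMIs came from 4 Tom+ and 32 Tom- cells. With at least 5 Calca and Ncam1 UMIs required, its log2 ratio in the Tom+ library was only 0.079. Serpinb2 (chr1:107511423-107535478), an inhibitor of plasminogen activators, had 2 UMIs in 1 Tom+ cell, or 5.20 CPM, and was at 82.6 CPM (67.9 to 99.4) among Tom- cells, where 6 of 102 cells held all of its UMIs and 1 cell held 74. The Serpinb2 level therefore described few cells.

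Summed over the 4 genes, the log2 ratio to the remaining cells was 4.13 (3.87 to 4.37) for Tom+ and 4.62 (4.50 to 4.74) for Tom- cells. It was 5.12 and 4.74 without barcodes listed in both libraries. In the Tom+ library 288 remaining cells had such a barcode, and 3 of them held 379 of the 1016 UMIs of these genes in remaining cells, all 379 from Cxcl5. With each cell thinned to 5000 UMIs, 17 of 27 Tom+ and 73 of 100 Tom- Calca/Ncam1 cells showed at least 1 of the 4 genes, while 96.0% and 95.2% of the remaining cells showed none.

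The cells were next compared with the remaining gate cells over all genes. Of 6344 genes with at least 20 CPM in either set, 254 (4.00%) were at least 2-fold higher in the Calca/Ncam1 cells of both libraries and 258 (4.07%) at least 2-fold lower. Of the 254 higher genes, 156 reached 20 CPM, as the mean of both libraries, in the Calca/Ncam1 cells alone, and 115 of the 258 lower genes reached it in the remaining cells alone. Such genes could only come out on the side where they are high, and the counts of members of gene lists below include them. The median log2 ratio of all tested genes was -0.099 in the Tom+ and -0.055 in the Tom- library. When the cell with most UMIs of a gene was left out in each library, 194 of the 254 genes stayed 2-fold higher and 255 of the 258 stayed 2-fold lower. Without the 3 cells that stood apart, 262 genes were higher, 242 of them among the 254, and 265 were lower, 235 of them among the 258.

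**Figure D1:**
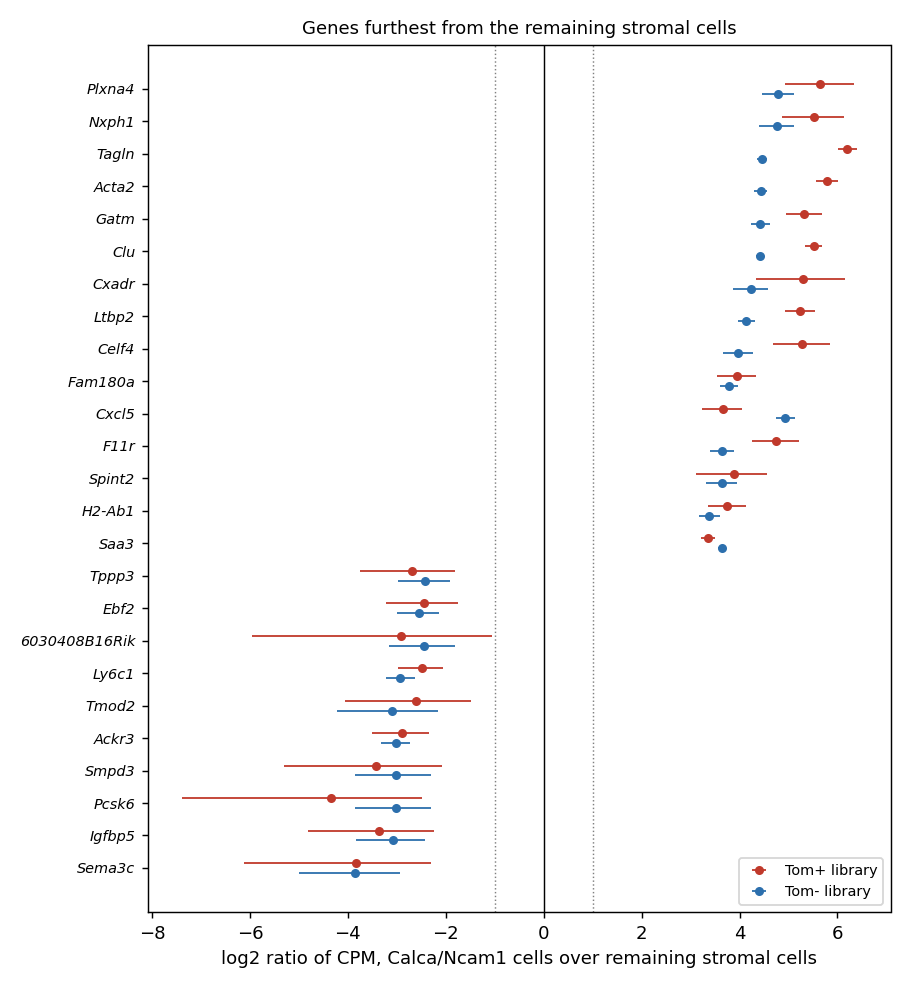
Log2 ratio of CPM in Calca/Ncam1 cells over the remaining gate cells (x axis) for the 15 higher and 10 lower genes furthest from 0 in both libraries (y axis), with 95% counting intervals, Tom+ library in red and Tom- in blue, and 2-fold marked by dotted lines. All 25 genes lie beyond 2-fold on the same side in both libraries, with values such as 5.65 and 4.79 for Plxna4 at one end and -3.84 and -3.86 for Sema3c at the other.

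Genes of the contractile cytoskeleton were among those furthest above the remaining cells. Tagln (transgelin, an actin-binding protein of smooth muscle and myofibroblasts) was at 952 CPM (857 to 1054) among Tom+ and 823 CPM (775 to 873) among Tom- Calca/Ncam1 cells, against 12.9 and 37.4 CPM in the remaining cells. Acta2 (smooth muscle actin) was at 637 CPM (560 to 722) and 522 CPM (484 to 562), against 11.5 and 24.1 CPM. In the Tom+ library 1 cell held 222 of the 366 Tagln UMIs, and without it the log2 ratio was 4.98 in place of 6.20. Of the 245 Acta2 UMIs there 1 cell held 131, and without it the log2 ratio was 4.81 in place of 5.79. Of 20 contractile genes, a list chosen after its values were seen, 17 were tested, of which 7 were higher (Acta2, Tagln, Tpm1, Tpm2, Actn1, Cnn2 and Palld) and none lower, beside 4.00% and 4.07% of all tested genes. Acta2 and Tpm2 reached 20 CPM in the Calca/Ncam1 cells alone. The list's median log2 ratio was 0.97 and 0.74. Myh11, the myosin heavy chain that defines mature smooth muscle, was at 70.2 and 23.1 CPM, against 45.6 and 24.6 CPM.

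The RefSeq promoter of Acta2, on the minus strand of GRCm38.p6 at chr19:34255374-34255487, is shown because Acta2 was among the named higher genes and the serum response element of such genes is well described. The capitals mark 2 matches to the CArG box, CC and GG with 6 bases between them of which at least 5 are A or T, a rule that reads the same on both strands.
Acta2: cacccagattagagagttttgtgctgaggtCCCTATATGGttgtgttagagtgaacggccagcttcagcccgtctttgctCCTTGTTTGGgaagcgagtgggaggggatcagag
They begin 84 and 34 bases before the annotated start, and 8.59% of all promoters, searched over the same 250 bases, held at least 1 such match.

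Of the named higher genes, Clu, Ltbp2, Saa3 and Fam180a encode secreted proteins. Clu (clusterin, a secreted chaperone) was at 1063 CPM (963 to 1172) among Tom+ and 1544 CPM (1479 to 1612) among Tom- Calca/Ncam1 cells, against 23.3 and 72.2 CPM. It was found in 19 of 27 Tom+ and 98 of 102 Tom- cells. Ltbp2, a latent TGF-beta binding protein of elastic fibres, was at 309 CPM (256 to 370) and 297 CPM (268 to 327), against 8.23 and 16.8 CPM. Saa3, an acute phase protein, was at 1152 CPM (1047 to 1264) and 1676 CPM (1608 to 1747), against 112 and 135 CPM, in 11 of 27 and 66 of 102 cells. In the Tom+ library 1 cell held 228 of the 443 Saa3 UMIs, and without it the log2 ratio was 2.37 in place of 3.36. Lcn2, another acute phase protein, was at 107 and 353 CPM, against 36.2 and 105 CPM, but 1 Tom- cell held 332 of its UMIs, and without it the log2 ratio there was 0.047. Fam180a, a secreted protein of little known function, was at 156 and 246 CPM, against 10.1 and 17.9 CPM.

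Other named higher genes encode proteins of the cell surface or of neurons. Plxna4, a semaphorin receptor of growing axons, was at 67.6 CPM (44.2 to 99.0) and 98.2 CPM (82.2 to 116), against 1.35 and 3.56 CPM. Nxph1, a neurexin ligand, was at 78.0 and 83.3 CPM, against 1.70 and 3.08 CPM, and Celf4, an RNA-binding protein of neurons, was at 88.4 and 91.5 CPM, against 2.28 and 5.82 CPM. Cxadr (the coxsackie and adenovirus receptor) was at 39.0 and 72.2 CPM, against 0.995 and 3.85 CPM. F11r (junctional adhesion molecule A) was at 122 and 132 CPM, against 4.56 and 10.6 CPM, and Spint2, a protease inhibitor of epithelia, at 49.4 and 85.6 CPM, against 3.36 and 6.88 CPM. Of 18 junction genes, also listed after values were seen, 11 were tested. Of these, 8 were higher and 1, Cldn15, was lower, beside 4.00% and 4.07% of all tested genes. Of the 8, 7 reached 20 CPM in the Calca/Ncam1 cells alone, and Cldn15 did so in the remaining cells alone. The counts therefore say nothing of a direction.

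Genes of antigen presentation by MHC class II were present. H2-Ab1 was at 169 CPM (130 to 215) and 168 CPM (147 to 192), against 12.5 and 16.1 CPM, and Cd74, the invariant chain, at 447 and 484 CPM, against 44.9 and 59.2 CPM. Of 5 tested class II genes, a list chosen after its values were seen, 4 were higher, beside 4.00% of all tested genes, and 5 without the cells that stood apart. Of the 4, H2-Ab1 and H2-Eb1 reached 20 CPM in the Calca/Ncam1 cells alone. Leukocytes also express these genes. The 8 leukocyte markers summed to 140 CPM in Tom+ Calca/Ncam1 cells, led by Cd68 at 54.6 CPM, against 41.0 CPM in the remaining cells. With the cells that carried leukocyte or mast cell RNA left out of both sets, the sum was 14.9 CPM against 9.12 CPM, with Cd68 at 5.95 CPM and Ptprc, Adgre1 and Itgam at 0 in the Calca/Ncam1 cells. The cells left out had been picked by these same 8 markers or by mast cell genes, so a low sum was fixed by that choice. Whether leukocytes gave the class II RNA was not tested. Without the cells left out, H2-Ab1 was at 190 CPM against 2.91 CPM in the Tom+ library and at 168 CPM against 7.87 CPM in the Tom- library, and Cd74 at 512 CPM against 7.67 CPM and at 484 CPM against 20.4 CPM. In Tom- Calca/Ncam1 cells the 8 leukocyte markers summed to 10.4 CPM. The remaining Tom- cells had 18.0 CPM, and 9.74 CPM with the cells that carried leukocyte or mast cell RNA left out. Cd3e and Nkg7 were at 0 in Calca/Ncam1 cells of both libraries. Cd74 was found in 55 of the 102 Tom- Calca/Ncam1 cells, and in 10 of the 24 Tom+ Calca/Ncam1 cells that did not stand apart.

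The genes furthest below the remaining cells included guidance, growth factor and lineage genes. Sema3c, a secreted guidance protein, was at 7.80 CPM (1.61 to 22.8) and 6.70 CPM (3.06 to 12.7), against 112 and 97.4 CPM. Igfbp5, a binding protein of insulin-like growth factors, was at 15.6 and 13.4 CPM, against 160 and 113 CPM. Ackr3, a scavenging receptor of Cxcl12, was at 67.6 and 72.9 CPM, against 504 and 591 CPM. Ebf2, a transcription factor of adipogenic precursors, was at 44.2 CPM (25.7 to 70.8) and 34.2 CPM (25.1 to 45.6), against 240 and 200 CPM. Ly6c1, a surface protein found on many APCs, was at 104 and 71.4 CPM, against 585 and 543 CPM. Pcsk6 (a proprotein convertase), Smpd3 (a sphingomyelinase), Tmod2 (a capping protein of actin filaments), Tppp3 (a tubulin-binding protein) and 6030408B16Rik completed the 10 lower genes, with log2 ratios from -4.35 to -2.42.

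For many of the named genes levels differed with the number of Calca and Ncam1 UMIs, also below the limit of the rule. Clu was at 19.7 CPM in Tom+ gate cells with 0 UMIs, 169 CPM with 1, 499 CPM with 2, 826 CPM with 3 to 4 and 1226 CPM with 5 or more. In the Tom- library the levels were 51.9, 473, 1062, 1280 and 1778 CPM. Ebf2 went the other way, from 240 to 26.3 CPM in the Tom+ and from 204 to 32.2 CPM in the Tom- library. From 0 over 1 to 2 UMIs, the level was higher at each step for 11 of the 15 higher genes in the Tom+ and for 15 in the Tom- library, and lower at each step for 6 and 9 of the 10 lower genes. Sema3c did so in neither library. The others without such an order were in the Tom+ library, among them Ly6c1 at 585, 565 and 594 CPM, Saa3 at 109, 352 and 101 CPM and Cxcl5 at 11.7, 0 and 139 CPM with 0, 1 and 2 UMIs. Over all 5 groups the order was steady for fewer genes, 9 of the 15 higher genes in each library. Of the 10 lower genes it was steady for 2 in the Tom+ and 8 in the Tom- library.

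**Figure D2:**
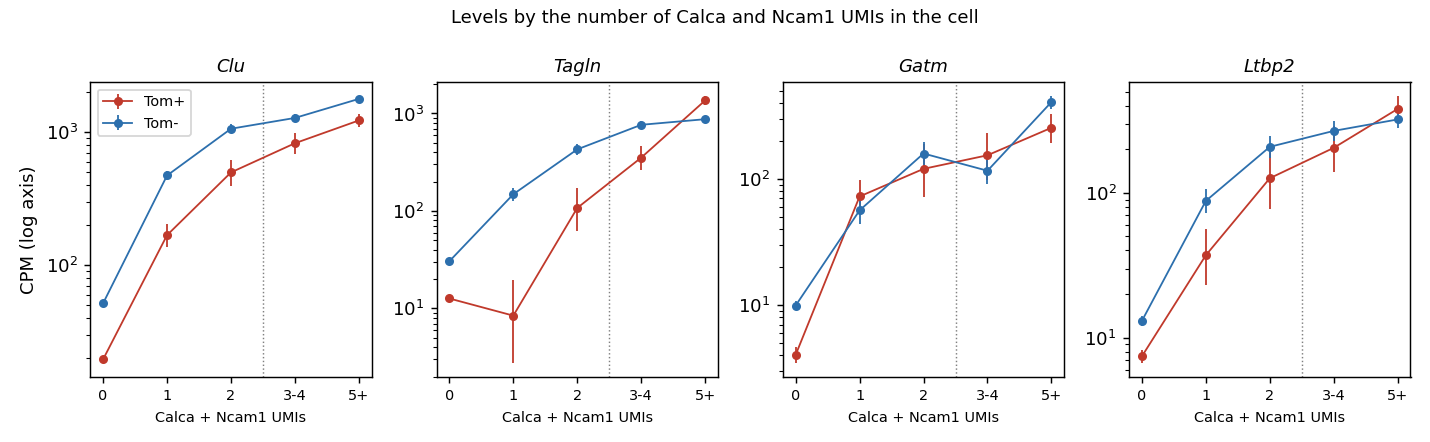
CPM on a log axis (y axis) of Clu, Tagln, Gatm and Ltbp2 in gate cells grouped by their Calca and Ncam1 UMIs (x axis), Tom+ library in red and Tom- in blue, with 95% counting intervals and the limit of the rule as a dotted line. Levels are lowest in cells without either gene, except for Tagln in the Tom+ library (12.6 CPM with 0 and 8.43 CPM with 1 UMI), and highest with 5 or more UMIs.

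The higher genes were found together in single cells. With each cell thinned to 5000 UMIs, the median Calca/Ncam1 cell showed 8 of the 15 higher genes in either library, and the median remaining cell showed 0. At least 3 of the 15 were found in 20 of 27 Tom+ and 95 of 100 Tom- Calca/Ncam1 cells, against 1.78% and 5.91% of remaining cells. The 15 genes were picked from the same sums, so the counts describe how they were spread over cells. None of the 15 was found in 3 Tom+ cells and 1 Tom- cell.

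**Figure D3:**
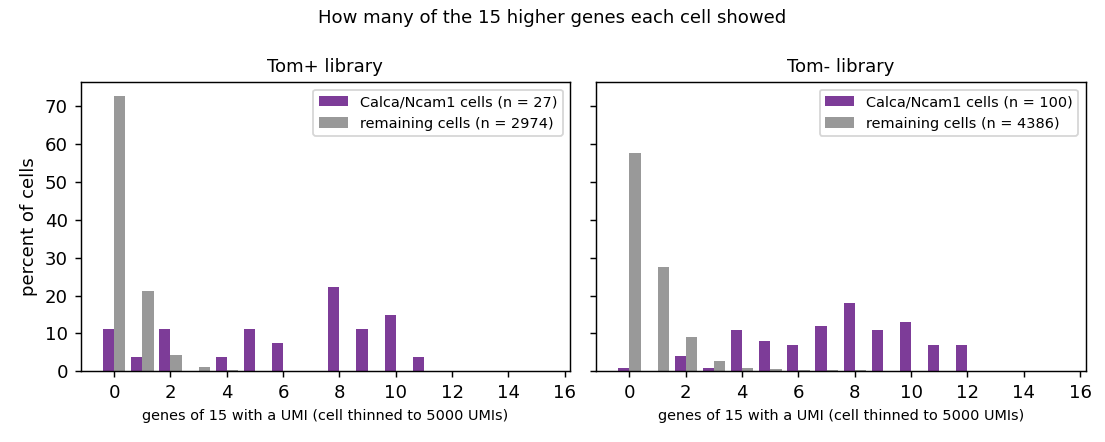
Percent of cells (y axis) by the number of the 15 higher genes with a UMI after thinning to 5000 UMIs (x axis), Calca/Ncam1 cells in purple and remaining gate cells in grey, 1 panel per library. The remaining cells pile up at 0 genes and the Calca/Ncam1 cells spread around a median of 8.

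When all gate cells were clustered with the 11 genes of the rule left out, 101 of the 129 Calca/Ncam1 cells (78.3%, 70.2 to 85.1) fell into 1 of 8 clusters. That cluster held 211 cells, 2.69% of the gate, and 47.9% of them were Calca/Ncam1 cells. It took 18 of the 27 Tom+ and 83 of the 102 Tom- Calca/Ncam1 cells. None of the 3 cells that stood apart was in it. Its other 110 cells, 12 Tom+ and 98 Tom-, had fewer than 3 UMIs of Calca and Ncam1, and 5 and 42 of them had none. Genes other than those of the rule were free to form the cluster, so their levels inside and outside it are a description. In the cells with none, Clu was at 760 and 1655 CPM and Gatm at 271 and 593 CPM, and in the remaining cells outside the cluster Clu was at 19.1 and 40.0 CPM. For the 28 Calca/Ncam1 cells outside the cluster, Clu reached 86.3 CPM among the 9 Tom+ cells and 290 CPM among the 19 Tom- cells outside, against 1616 and 2076 CPM inside, and their median depth was 19092 and 18342 UMIs against 11734 and 9908 inside.

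The cells were checked against markers of APCs and of other cell types. Dcn (decorin, the most abundant APC marker) was found in all 129 cells, at 16567 CPM in the Tom+ and 17252 CPM in the Tom- library. Of 8 tested APC markers, 7 did not pass 2-fold in both libraries, and 1, Ly6a, was lower in both, beside 4.07% of all tested genes. Ly6a was at 385 and 354 CPM, against 1345 and 1453 CPM. Several genes that define glia and neurons were at 0. The Schwann cell genes Sox10, Cdh19 and Foxd3 and the neuronal genes Elavl4, Snap25, Nefl and Nefm were at 0 in both libraries, and the 7 neuronal markers summed to 5.20 and 12.6 CPM. Other genes of the Schwann cell list were found, and the list summed to 44.2 and 26.8 CPM, against 21.4 and 13.9 CPM, led by Mbp at 28.6 and 25.3 CPM, against 16.4 and 9.58 CPM. Without the cells that stood apart Mbp passed 2-fold in both libraries, with log2 ratios of 1.02 and 1.42, and it reached 20 CPM in the Calca/Ncam1 cells alone. The endothelial genes Cdh5, Tie1 and Cldn5, the epithelial gene Epcam, the myogenic genes Pax7, Myod1 and Myf5, the steroidogenic genes Hsd3b1, Nr5a1 and Insl3 and the adipocyte genes Plin1, Lep and Cidec were also at 0. Star, which carries cholesterol into mitochondria for steroid synthesis, was higher, at 26.0 and 51.3 CPM against 11.6 and 22.5 CPM, but without its highest cell the log2 ratio was 0.54 and 0.71. Cyp11a1, the enzyme of the first step of that synthesis, was at 44.2 CPM in the Tom+ library, from 2 cells, and at 0 in the Tom- library. Both cells were among the 3 that stood apart, and without those Cyp11a1 was at 0 in both libraries. A gene at 0 could have been present at up to 7.80 CPM among Tom+ and 2.23 CPM among Tom- Calca/Ncam1 cells, the level of 3 counts.

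Mesothelial cells, the 261 Tom+ and 1916 Tom- cells with at least 5 UMIs of the mesothelial genes, shared part of the pattern. Among them Clu was at 1704 and 2067 CPM, Saa3 at 1784 and 1793 CPM, Plxna4 at 184 and 166 CPM and Cxadr at 315 and 334 CPM, all above the Calca/Ncam1 cells. The median mesothelial cell showed 6 of the 15 higher genes in either library. F11r at 261 and 265 CPM and Spint2 at 218 and 279 CPM were also above them. Other genes were lower in mesothelial cells than in Calca/Ncam1 cells, with Tagln at 107 and 158 CPM, Ltbp2 at 29.9 and 37.4 CPM, Gatm at 31.1 and 39.5 CPM and Cxcl5 at 9.30 and 5.04 CPM. Acta2 was closer, at 351 and 416 CPM. After thinning it was found in 53.5% and 56.4% of mesothelial and in 44.4% and 64.0% of Calca/Ncam1 cells. Igfbp5, among the lowest genes of the Calca/Ncam1 cells, was at 2922 and 2060 CPM in mesothelial cells. The 5 mesothelial genes of the rule summed to 23.4 and 45.4 CPM in Calca/Ncam1 cells, against 6.79 and 27.3 CPM in the remaining cells. Of 13 mesothelial genes that the rule did not use, listed after values were seen, 5 were tested, of which 3 were higher (Gpm6a, Slpi and Nkain4), beside 4.00% of all tested genes, and 4 without the cells that stood apart. Gpm6a reached 20 CPM in the Calca/Ncam1 cells alone. Gpm6a, a membrane glycoprotein, was at 20.8 and 23.8 CPM in Calca/Ncam1 cells and at 1009 and 977 CPM in mesothelial cells. The part of mesothelial RNA in these results was not tested.

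Of 15 tested adipogenic genes, none was higher and 8 were lower in both libraries (Pparg, Cebpa, Cebpd, Fabp4, Lpl, Ebf1, Agt and G0s2), beside the 4.07% of all tested genes that were lower. Pparg and Cebpa reached 20 CPM in the remaining cells alone, and without the cells that stood apart 9 of 14 tested genes were lower, with Plin2 added. The median log2 ratio of the list was -1.16 and -1.59. Fabp4, a fatty acid carrier, was at 413 CPM (352 to 483) and 263 CPM (237 to 292), against 1219 and 1011 CPM, and Lpl (lipoprotein lipase) was at 289 and 407 CPM, against 939 and 936 CPM. Pparg, the master regulator of fat cell formation, had 1 UMI in Tom+ and was at 5.21 CPM in Tom- Calca/Ncam1 cells, against 20.6 and 22.9 CPM.

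Basement membrane genes went the same way, with 8 of 16 tested genes lower and none higher, beside 4.07% and 4.00% of all tested genes. Nid1 (nidogen) was at 442 and 199 CPM, against 1306 and 851 CPM, and Col4a1 at 640 and 391 CPM, against 1376 and 914 CPM. Of 7 tested fibrillar collagen genes, 1 (Col5a3) was lower. Of 30 tested proteoglycan and glycoprotein genes, 4 were higher and 7 lower, beside 4.00% and 4.07% of all tested genes, and without the cells that stood apart 4 and 6, with Vcan no longer among them. Bgn (biglycan) was at 2545 and 3372 CPM, against 990 and 1295 CPM, and Thbs1 (thrombospondin) at 2959 and 3743 CPM, against 593 and 967 CPM, while Vcan (versican) was at 80.6 and 75.1 CPM, against 170 and 169 CPM.

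Among 20 tested lineage transcription factors, 7 were lower (Tcf21, Twist2, Nr2f1, Osr1, Sox9, Ebf1 and Ebf2) and 1 was higher, beside 4.07% and 4.00% of all tested genes. Twist2 and Nr2f1 reached 20 CPM in the remaining cells alone. The higher gene, Hand2, a factor of lateral mesoderm, was at 23.4 CPM (10.7 to 44.4) and 27.5 CPM (19.4 to 37.9), against 0.464 and 1.38 CPM, and was at 71.4 and 59.9 CPM in mesothelial cells. Hand2 reached 20 CPM in the Calca/Ncam1 cells alone, so higher was the only call open to it. None of 6 tested Hox genes passed 2-fold in both libraries.

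Signalling genes moved in both directions. Of 10 tested genes of a Wnt list, 5 were higher (Wnt4, Rspo1, Dkk3, Wisp1 and Wisp2) and 1 (Sfrp4) was lower, beside 4.00% and 4.07% of all tested genes. The list held ligands and modulators, and also Wisp1 and Wisp2, which are named as Wnt-induced proteins. Its median log2 ratio was 1.44 and 1.13. Of the 5, Wnt4, Dkk3 and Wisp1 reached 20 CPM in the Calca/Ncam1 cells alone, and Sfrp4 did so in the remaining cells alone. Wnt4 was at 75.4 CPM (50.5 to 108) and 103 CPM (86.9 to 122), against 4.76 and 13.4 CPM, and Rspo1, which amplifies Wnt signals, was at 177 and 203 CPM, against 49.3 and 63.5 CPM. Wisp2 was found in 5 and 24 cells, and without its highest cell the log2 ratio was 0.92 and 0.57 in place of 1.73 and 1.11. Of 20 tested genes of the BMP, activin and TGF-beta family, 5 were higher (Bmp4, Tgfb3, Tgfbr1, Chrdl1 and Ltbp2) and 3 lower (Inhbb, Fst and Ltbp1), beside the same shares of all genes, and without the cells that stood apart 6 and 3, with Inhba added. Bmp4, Tgfb3, Chrdl1 and Ltbp2 reached 20 CPM in the Calca/Ncam1 cells alone, and Inhbb in the remaining cells alone. Tgfb3, a TGF-beta ligand, was at 83.2 and 66.2 CPM, against 16.3 and 16.9 CPM.

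Of 9 tested CXC chemokines, 4 were higher (Cxcl2, Cxcl10, Cxcl13 and Cxcl16) and 1 (Cxcl9) was lower, beside 4.00% and 4.07% of all tested genes. Cxcl9 reached 20 CPM in the remaining cells alone. Cxcl2 was at 671 and 443 CPM, against 55.7 and 173 CPM. Cxcl13, the B cell attractant, was at 98.8 and 373 CPM, against 33.1 and 99.2 CPM, but in the Tom+ library 3 cells held its UMIs, and without the highest of them the log2 ratio was -2.03 in place of 1.58. Cxcl5, named above, was counted with the markers. Of 8 tested prostaglandin genes, 3 were higher (Ptgs1, Ptgis and Ptger3), and Hpgd, which degrades prostaglandins, was lower, at 49.4 and 23.8 CPM against 223 and 195 CPM. Beside these 3 stand the 4.00% of all tested genes that were higher, and Ptgs1 and Ptger3 reached 20 CPM in the Calca/Ncam1 cells alone. Ptgis (prostacyclin synthase) was at 348 and 484 CPM, against 150 and 205 CPM.

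Genes related to the 2 genes of the rule were few. Of 10 genes of the calcitonin family and its receptors, Calca itself aside, 3 were tested and 2 were lower, beside 4.07% of all tested genes. Adm (adrenomedullin, a relative of CGRP) was lower, at 185 and 168 CPM against 677 and 466 CPM, and so was Ramp2, a subunit of its receptor, at 20.8 and 40.2 CPM against 124 and 110 CPM. Calcr, the calcitonin receptor, was at 0 in Calca/Ncam1 cells of both libraries, as were Iapp and Adm2. Of 24 neural adhesion genes 5 were tested, of which Chl1 and Cadm4 were higher and Opcml was lower, beside 4.00% and 4.07% of all tested genes. Chl1 and Cadm4 reached 20 CPM in the Calca/Ncam1 cells alone and Opcml in the remaining cells alone, so each had 1 call open to it. Chl1, a close relative of L1CAM, was at 65.0 CPM (42.1 to 96.0) and 64.7 CPM (51.8 to 79.8), against 3.85 and 13.7 CPM. Of 17 tested axon guidance genes, 3 were higher and 4 lower, and without the cells that stood apart 4 and 3 of 18, so no direction can be read from them. These counts stand beside 4.00% and 4.07% of all tested genes. Epha2 and Efna5 of the higher genes reached 20 CPM in the Calca/Ncam1 cells alone, and Sema3c, Ntn1 and Nrp2 of the lower in the remaining cells alone. Of 13 mitochondrially encoded genes, none passed 2-fold in both libraries. Of 28 tested immediate early genes, which tissue dissociation can raise, 1 was higher (Nr4a2) and 1 lower (Socs3), close to the 4.00% and 4.07% of all tested genes.

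Cdkn2a, the gene that drives the reporter, was the higher 1 of 12 tested genes of senescence and cell cycle arrest, beside 4.00% of all tested genes, and reached 20 CPM in the Calca/Ncam1 cells alone. It was at 41.6 CPM (23.8 to 67.6) among Tom+ and 46.1 CPM (35.4 to 59.1) among Tom- Calca/Ncam1 cells, against 4.62 and 4.59 CPM in the remaining cells and 12.3 and 8.74 CPM in mesothelial cells. Its UMIs came from 8 of 27 and 28 of 102 cells, with at most 6 and 7 UMIs in a cell. After thinning, 11.1% and 19.0% of Calca/Ncam1 cells and 1.68% and 1.69% of remaining cells showed a UMI. The locus, on the minus strand at chr4:89274471-89294653, encodes p16 and p19ARF, and counts per gene do not separate them. Within the cluster it was at 65.1 CPM among Tom+ and 61.4 CPM among Tom- Calca/Ncam1 cells. Outside the cluster it was at 0 in 9 Tom+ cells and at 10.0 CPM in 19 Tom- cells. The 12 Tom+ and 98 Tom- cells of the cluster with fewer than 3 UMIs of Calca and Ncam1 had 46.6 CPM (18.8 to 96.1) and 23.0 CPM (14.6 to 34.5).

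RNA of the reporter itself, tdTomato, was at 1019 CPM (921 to 1125) in Tom+ Calca/Ncam1 cells and at 151 CPM (148 to 155) in the remaining Tom+ cells. Mesothelial cells of the same library had 774 CPM. A tdTomato UMI was found in 16 of 27 Calca/Ncam1 cells (59.3%, 38.8 to 77.6) and in 25.3% of the remaining cells (23.8 to 26.9), and after thinning in 14 of 27 (51.9%) and 417 of 2974. Without the 3 cells that stood apart the level was 976 CPM, and in the 18 Calca/Ncam1 cells inside the cluster it was 1071 CPM. The other 12 Tom+ cells of the cluster had 1253 CPM (1080 to 1445), with a UMI in 10 of them. In the Tom- library, sorted for the absence of the red protein, the level was 12.6 CPM (7.37 to 20.2) in Calca/Ncam1 cells and 13.2 CPM (12.3 to 14.2) in the remaining cells, with a UMI in 11.8% and 13.0% of cells.

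The reporter was uneven among the Tom+ Calca/Ncam1 cells. Of the 27, 11 had no tdTomato UMI, 5 had 1 to 19 and 11 had 20 to 44. Of the 102 Tom- cells, 90 had none and the highest had 4. Among the 8 Tom+ cells with a Cdkn2a UMI, 3 also had a tdTomato UMI and 5 had none.

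**Figure D4:**
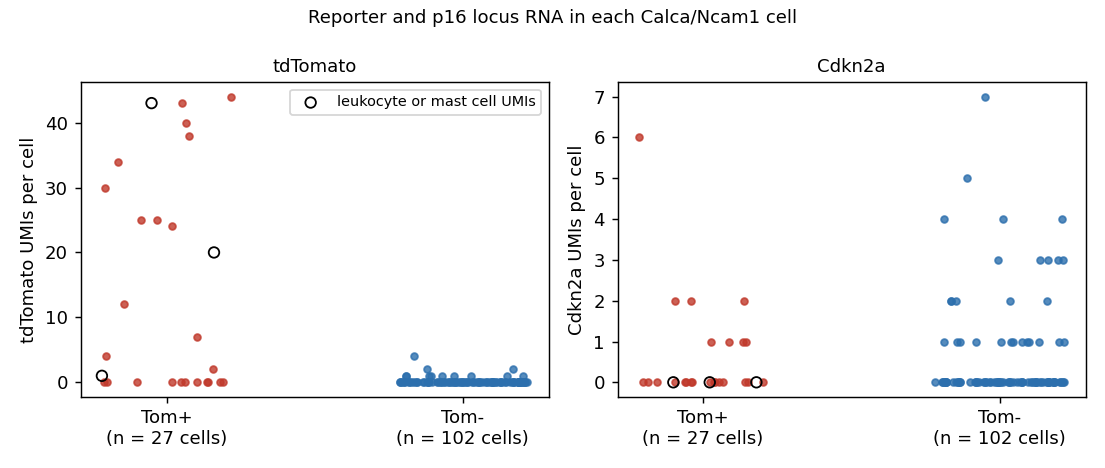
UMIs per cell (y axis) of tdTomato (left) and Cdkn2a (right) in each Calca/Ncam1 cell of the Tom+ library (red) and the Tom- library (blue), with open circles for the 3 cells that carried leukocyte or mast cell RNA. Of the Tom+ cells 11 reach 20 or more tdTomato UMIs and none of the Tom- cells exceeds 4, while Cdkn2a UMIs occur in both libraries.

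The Calca/Ncam1 cells were compared among themselves by whether they had a Calca UMI. Of 2824 genes with at least 50 CPM in Calca/Ncam1 cells, 4 were at least 2-fold higher in both libraries in the cells with Calca (Cxcl13, Csf3, Jdp2 and Cd74) and 14 were lower. For 5 of these (Wisp2, Cpxm2, Tagln, Cilp and Mfap4) the intervals left out 0 in both libraries. Cxcl13 was at 493 and 789 CPM in cells with Calca and at 3.23 and 75.4 CPM in cells without. It was found in 2 of 7 Tom+ and 9 of 43 Tom- cells with Calca, and without the highest cell the log2 ratio was 3.33 and 2.64. In the Tom+ library the highest cell held 35 of the 37 Cxcl13 UMIs of cells with Calca. The Tom+ cells without Calca had 1 Cxcl13 UMI, so the value of 3.33 rests on very few UMIs. Csf3 was found in 1 and 3 cells with Calca. Without the highest cell of each gene, 3 of the 9 genes (Cxcl13, Cilp and Mfap4) passed 2-fold in both libraries, and the Tom+ log2 ratio was 0.46 for Jdp2 and 0.10 for Cd74. Wisp2 and Cpxm2 had 0 UMIs in the 7 Tom+ cells with Calca, so that without the highest cell a 2-fold difference could not be shown there. Tagln was at 413 and 479 CPM with Calca and at 1082 and 1069 CPM without, but without its highest cell the log2 ratio in the Tom+ library was 0.028. Without the 3 cells that stood apart, 3 of 2778 genes were higher (Cxcl13, Csf3 and Jdp2) and 7 lower, the 5 named above among them. Mfap4, a microfibril protein, was at 26.7 and 105 CPM with Calca and at 320 and 442 CPM without. Reporter RNA was at 1147 CPM (917 to 1416) in Tom+ cells with Calca and 988 CPM (881 to 1105) without.

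**Figure D5:**
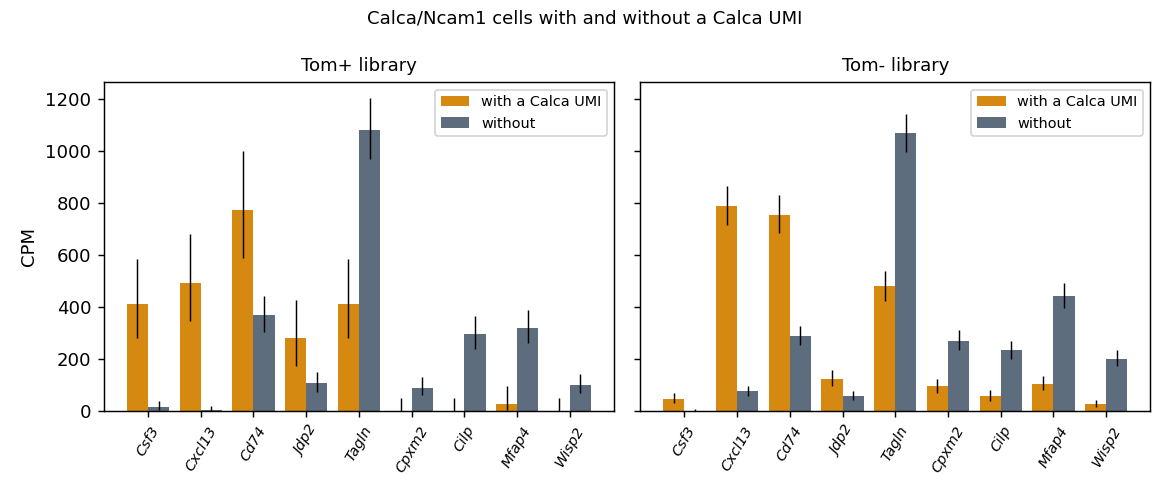
CPM (y axis) of 9 of the 18 genes (x axis), the 4 higher and the 5 lower named in the text, that differed at least 2-fold in both libraries between Calca/Ncam1 cells with a Calca UMI (orange) and without (grey), 1 panel per library, with 95% Poisson intervals. Csf3, Cxcl13, Cd74 and Jdp2 are higher in cells with Calca and the other 5 are lower, with Cpxm2, Cilp and Wisp2 at 0 in the 7 Tom+ cells with Calca.

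Between the fractions, 77 of 2824 genes (2.73%) were at least 2-fold higher in Tom+ than in Tom- Calca/Ncam1 cells and 35 (1.24%) at least 2-fold lower. In the remaining cells 16 of these genes (0.567%) were higher and 50 (1.77%) lower. Without the 3 cells that stood apart, 53 of 2778 genes were higher and 40 lower. Genes entered by a mean of at least 50 CPM over the 2 libraries. A gene under 50 CPM in 1 fraction could therefore only come out higher in the other, and the counts include such genes. Tpsb2, Hdc, Furin, Dennd4a, Pi15 and Hbegf, named below, were under 50 CPM in Tom- Calca/Ncam1 cells. The genes named next were chosen after their values were seen. Mast cell and macrophage genes led the higher genes, with Tpsb2 at 1056 CPM among Tom+ and 0.744 CPM among Tom- cells, and without the 3 cells Tpsb2 was at 2.98 CPM. Without them 4 of the 112 genes past 2-fold changed sign, with log2 ratios of -2.94 in place of 1.71 for Srgn, -3.64 in place of 2.57 for Hdc, -0.81 in place of 2.44 for Furin and -0.18 in place of 1.21 for Dennd4a. The neuropeptide gene Penk was at 237 and 83.3 CPM, while in the remaining cells it was at 357 and 703 CPM, and it was found in 10 of 27 and 25 of 102 cells. Pi15, a protease inhibitor, was at 109 and 8.93 CPM, and Hbegf, a ligand of the EGF receptor, was at 109 and 20.8 CPM, each found in 6 of the 27 Tom+ cells.

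Ptx3, Hp, Il33 and Has1 were among the genes lower in Tom+ Calca/Ncam1 cells. Ptx3, a pentraxin of innate immunity, was at 20.8 CPM among Tom+ and 194 CPM among Tom- cells, and Hp (haptoglobin) was at 62.4 and 370 CPM. Il33, an alarmin, was at 72.8 CPM and 222 CPM, and Has1, a hyaluronan synthase, at 135 CPM and 446 CPM. In the remaining cells the same genes were lower in the Tom+ library too, with log2 ratios of -0.89 for Ptx3, -1.10 for Hp, -1.44 for Il33 and -1.22 for Has1, beside -3.22, -2.57, -1.61 and -1.72 in Calca/Ncam1 cells. Without the 3 cells the ratio of Ptx3 was -4.03. Csf3, a growth factor of neutrophils, went the other way, at 93.6 and 20.8 CPM, from 2 Tom+ and 4 Tom- cells. Whether the ratios differed between these cells and the rest could not be tested with 1 library of each fraction.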

How the data were processed

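The 10x Genomics 3′ libraries analysed were 1 of Tom+ and 1 of Tom- CD31- CD45- cells of gWAT, with groups taken from the GEO labels. The authors deposited raw counts, whole numbers of UMIs for every gene and barcode, made by Cell Ranger 3.0.2 on mm10 per the submitters' processing notes. All barcodes held 61119807 (Tom+) and 96872394 (Tom-) UMIs. Members, marker genes and lists were chosen with earlier results of these data known. UMIs were summed per library and set of cells and scaled to CPM. A gene was called at a log2 ratio of at least 1 or at most -1 in both libraries, and a count of 0 was set to 3 counts. A gene for which that bound lay on the opposite side had no ratio. The text names the 15 higher and 10 lower genes of at least 50 CPM with the largest smaller ratio of the 2 libraries, intervals leaving out 0, and genes of fixed lists. Between fractions and for Calca, genes of at least 50 CPM entered. Of the named genes 30 of 31 were placed in GENCODE vM21, and 18 had a RefSeq promoter (GRCm38.p6). Of the list genes 6 were not found in the tables. Cells were thinned to 5000 UMIs for shares, which left out no Tom+ and 2 Tom- members, and 117 and 246 remaining cells. Clustering (scanpy 1.11.5, Leiden) used 2000 variable genes. Scrublet called 2 of 3524 Tom+ cells (0.0568%), too few for the call to have worked, and 122 of 6717 Tom- cells (1.82%), among them 1 member. Doublets were kept. Scripts ran in python 3.11.15 and were tested on simulated data. Alternatives covered thresholds, depth weighting, scaling, low genes and the cells that stood apart.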

Additional observations from a re-analysis of the deposited data

Results flagged for a closer look

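RNA of Calca and Ncam1 was also found outside the stromal gate, in cells that the comparisons above did not use. At least 3 UMIs of the 2 genes were present in 4 of 261 Tom+ cells (1.53%, 0.419 to 3.88) and 44 of 1916 Tom- cells (2.30%, 1.67 to 3.07) with at least 5 mesothelial UMIs. The limit that a count of 0 allows is 1.15% and 0.157%. The Tom- interval lies above it, and the Tom+ interval includes it. Among cells rich in immunoglobulin RNA, 1 of 145 Tom+ and 1 of 66 Tom- cells reached 3 UMIs.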

How the results depend on the processing

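All 15 higher and 10 lower named genes kept their calls under every setting tried, and the comparison results and named ratios recomputed under these settings kept their sign. Between the fractions, 4 of 112 genes changed sign without the cells that stood apart, as given above. Of the named ratios that could be computed, 1 fell below 2-fold, that of Art3 given above. With Calca alone as the rule, Art3 and Serpinb2 had 0 UMIs in the Tom+ cells and so had no ratio there. Of 120 values of comparison results under alternatives, 93 stayed within their interval or within 1.5 times. With at least 2 UMIs of Calca and Ncam1, the share was 3.19% in the Tom- library, 20 genes were lower in Tom+ cells, and tdTomato was at 917 CPM in Tom+ cells. With at least 5 UMIs the shares were 0.481% and 1.08%, and tdTomato in Tom- cells was at 7.0 CPM. With at least 200 CPM the Tom- share was 2.64% and Tom+ tdTomato 1142 CPM. With each cell scaled to equal UMIs tdTomato was at 1129 CPM in Tom+ cells, and without shared barcodes at 1134 CPM. Genes of at least 50 CPM gave 143 higher and 165 lower, and of at least 5 CPM 474 and 418. Genes of at least 20 CPM gave 280 higher and 143 lower between the fractions. Without cells outside the cluster 417 genes were lower. The log2 ratio summed over Cxcl5, Gatm, Serpinb2 and Art3 was 4.75 (Tom-) with under 5% mitochondrial UMIs, 4.91 and 4.43 (Tom+ and Tom-) with equal weights, 5.00 (Tom-) against cells with 0 UMIs of Calca and Ncam1, and 5.45 and 4.49 with Calca alone as the rule. It was 5.12 and 4.74 without shared barcodes and 4.63 and 5.05 within the cluster. The settings on shared barcodes, cells that stood apart and the cluster were chosen after seeing the data. The cause of these shifts was not tested. No paired analysis was possible because each condition had 1 library. With 384621 UMIs in 27 Tom+ cells, a count of 0 there allows a level of up to 7.80 CPM.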
